A study of Mus musculus with 12 samples.

Results

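The genes described here are 5 markers of dividing cells (Mki67, Top2a, Kif11, Cdk1 and Mcm2), the D cyclins Ccnd1, Ccnd2 and Ccnd3, and the cyclin-dependent kinases Cdk4 and Cdk7. They were found by symbol in a table of RNA sequencing values from mouse subcortical white matter, where each of the 10 symbols stood at exactly 1 of 33864 loci. Sox10-tTA;TRE-ErbB2V664E mutants and littermate TRE-ErbB2V664E controls were sampled at postnatal day 30 after doxycycline from day 21 to day 30. Sox10-tTA;TRE-dnEGFR mutants and littermate TRE-dnEGFR controls were sampled at day 35 after doxycycline from day 21 to day 35. Each group held 3 mice, with 1 library per mouse, and the labels' pairing of each mutant with a littermate control gave 6 litters. All 4 groups received doxycycline, and all carried a TRE transgene. Mutants alone carried Sox10-tTA, a transactivator driven from a promoter of the oligodendrocyte lineage, and no group had the transactivator without a TRE transgene. Per the study's title, the lines serve to activate (ErbB2V664E) or inhibit (dnEGFR) ErbB receptors in oligodendroglia. The labels give the span of doxycycline but not whether the drug turned transgene expression on or off.

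A cell is carried from G1 into S phase when D cyclins, bound to Cdk4 or its relative Cdk6, phosphorylate the retinoblastoma protein and release E2F factors. Mcm2 is a subunit of the replicative helicase, topoisomerase II alpha (Top2a) untangles replicated chromosomes, Kif11 is the kinesin that separates the spindle poles, and Cdk1 is the kinase of mitosis. Ki-67 (Mki67) coats mitotic chromosomes and is made in cycling cells, which makes it a standard count of dividing cells in tissue. Cdk7 stands apart: with cyclin H (Ccnh) and Mnat1 it forms the CDK-activating kinase, which also belongs to the transcription factor TFIIH and is used by cells that do not divide. In young postnatal white matter, oligodendrocyte precursors are the main dividing cells, while most oligodendrocytes have left the cycle.

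The promoters of the 5 proliferation markers and of Cdk7 are shown because the letters before the start differ between the proliferation markers and Cdk7. Each sequence is the 250 bases before the RefSeq transcript start on the gene's strand (RefSeq, build GRCm38.p6), and 8 of the 10 members matched that table; none is printed for Ccnd1 and Ccnd2. Capitals mark 3 kinds of motif, searched on both strands: TTTGAA, the core of the cell cycle homology region (CHR), CCAAT, the box bound by NF-Y, and 4 E2F-like sequences of 7 letters, spelled out with their shares after the sequences. No occurrence printed here overlapped another. The windows are, in order, chr7:135716380-135716629 (minus strand), chr11:99024190-99024439 (minus), chr19:37376132-37376381 (plus), chr10:69352913-69353162 (minus), chr6:88898781-88899030 (minus) and chr13:100730943-100731192 (minus).
Mki67: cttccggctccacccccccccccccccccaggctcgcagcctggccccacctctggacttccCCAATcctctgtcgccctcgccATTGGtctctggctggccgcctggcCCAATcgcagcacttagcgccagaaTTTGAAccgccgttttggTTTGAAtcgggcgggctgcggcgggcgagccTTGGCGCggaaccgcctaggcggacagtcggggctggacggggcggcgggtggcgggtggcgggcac
Top2a: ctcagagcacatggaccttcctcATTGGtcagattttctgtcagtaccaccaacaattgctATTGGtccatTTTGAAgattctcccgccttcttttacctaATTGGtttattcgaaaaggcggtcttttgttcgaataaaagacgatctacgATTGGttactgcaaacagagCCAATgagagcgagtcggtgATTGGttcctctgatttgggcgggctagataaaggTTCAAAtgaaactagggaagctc
Kif11: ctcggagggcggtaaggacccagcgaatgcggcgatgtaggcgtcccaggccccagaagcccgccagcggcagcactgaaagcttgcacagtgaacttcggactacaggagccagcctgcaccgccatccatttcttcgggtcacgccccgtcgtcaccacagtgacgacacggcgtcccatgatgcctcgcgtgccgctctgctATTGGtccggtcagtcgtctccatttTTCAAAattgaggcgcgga
Cdk1: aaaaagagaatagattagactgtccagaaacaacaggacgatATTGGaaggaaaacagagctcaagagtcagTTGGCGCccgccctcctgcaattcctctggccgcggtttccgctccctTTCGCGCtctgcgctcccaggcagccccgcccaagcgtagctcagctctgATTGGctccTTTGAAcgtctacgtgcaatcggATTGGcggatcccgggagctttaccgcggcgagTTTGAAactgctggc
Mcm2: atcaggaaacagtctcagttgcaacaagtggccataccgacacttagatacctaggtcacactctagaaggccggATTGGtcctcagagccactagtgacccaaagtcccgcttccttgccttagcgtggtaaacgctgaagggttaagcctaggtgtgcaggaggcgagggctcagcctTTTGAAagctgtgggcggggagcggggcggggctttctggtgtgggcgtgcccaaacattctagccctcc
Cdk7: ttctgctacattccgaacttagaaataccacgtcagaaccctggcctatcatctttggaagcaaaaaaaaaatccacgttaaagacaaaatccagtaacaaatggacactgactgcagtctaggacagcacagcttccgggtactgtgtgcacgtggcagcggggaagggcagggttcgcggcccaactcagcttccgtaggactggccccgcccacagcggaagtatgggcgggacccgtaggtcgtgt

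All 5 proliferation markers held at least 1 CHR core and at least 1 CCAAT box in this window, against 6.45% of 27025 mouse genes with a promoter of that length. Mki67 had 2 CHR cores, 3 CCAAT boxes and 1 E2F-like match. Top2a had 2 CHR cores and 6 CCAAT boxes, and Cdk1 had 2 CHR cores, 3 CCAAT boxes and 2 E2F-like matches. Kif11 and Mcm2 had 1 CHR core and 1 CCAAT box each. Neither Cdk7 nor Cdk4 held any of the letters searched, and of the 2 RefSeq starts of Ccnd3 1 held a single CCAAT box. Over all 32851 promoter windows, 16% held the CHR core, 33.8% a CCAAT box, 5.55% both, and 7.89% any of the E2F-like letters (TTGGCGC in 1.97%, TTCCCGC in 3.82%, TTCGCGC in 1.28% and TTGCCGC in 1.36%). Of the 28 genes of a wider mitotic list with a promoter, 21 held a CCAAT box, 8 a CHR core and 7 (25%) both. Of the 17 DNA replication genes with one, 10 held E2F-like letters, 13 a CCAAT box, 2 a CHR core and 1 (5.88%) both of these last. A match describes the letters and is no evidence of a bound site.

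**Figure D1:**
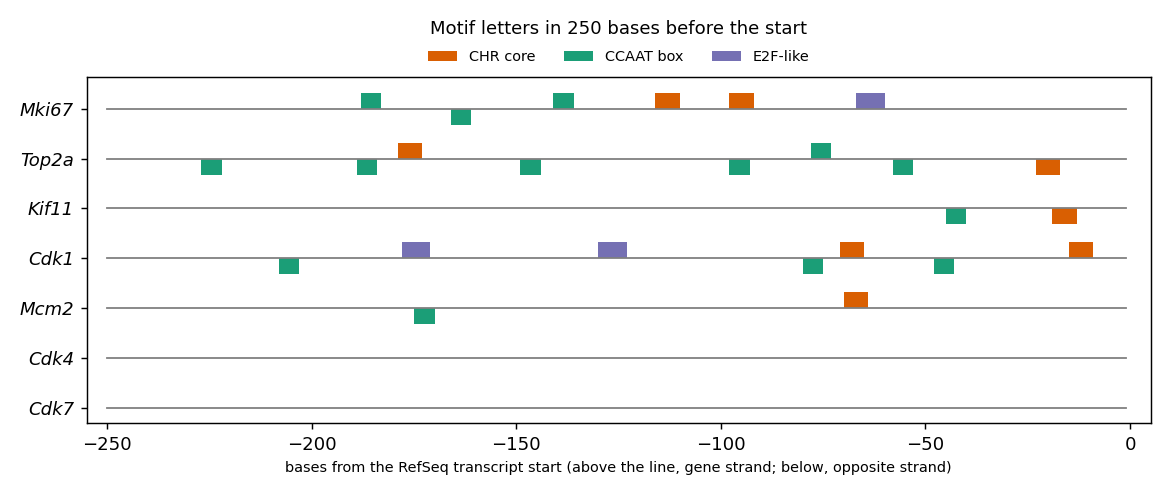
Positions of the CHR core, CCAAT box and E2F-like letters in the 250 bases before the RefSeq start of 7 members, in bases from the start (horizontal axis), with marks above the line on the gene's strand and below it on the other. The 5 upper rows, the proliferation markers, all carry CHR and CCAAT marks, and the rows of Cdk4 and Cdk7 are empty.

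Values are the authors' FPKM, which divide the fragments of a locus by its length and by the library's mapped fragments, so levels can be compared between genes. The members fell into 2 ranges of level. Over the 12 libraries the mean level was 8.33 FPKM for Ccnd2, 7.32 for Ccnd1, 5.17 for Cdk4 and 5.01 for Cdk7, and these 4 genes were above 1 FPKM in every library. Ccnd3 followed with 1.29 FPKM. The proliferation markers were near the bottom of the scale, with means of 0.784 FPKM for Mki67, 0.781 for Kif11, 0.667 for Top2a, 0.648 for Mcm2 and 0.14 for Cdk1. Cdk1 and Mcm2 were under 1 FPKM in all 12 libraries, Top2a reached it in 1, Mki67 and Kif11 in 4 and Ccnd3 in 8.

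Within groups, neighbours in this order were often not separated by their spread. In ErbB2V664E controls Cdk4 (5.57 ± 0.409 FPKM) and Cdk7 (5.53 ± 0.454) lay together, and Kif11, Mcm2 and Top2a lay between 0.718 and 0.85 FPKM (SD, n = 3 each). In dnEGFR controls Ccnd1 and Ccnd2 did (7.61 ± 0.875 and 7.32 ± 0.992 FPKM), as did Kif11, Top2a and Mki67 at 0.819 to 0.858 FPKM. Ccnd1 and Ccnd2 were above Ccnd3 in every group, with Ccnd1 first in dnEGFR controls and Ccnd2 first in the other groups. Cdk7 took the third place in ErbB2V664E mutants and dnEGFR controls and the fourth in ErbB2V664E controls and dnEGFR mutants.

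**Figure D2:**
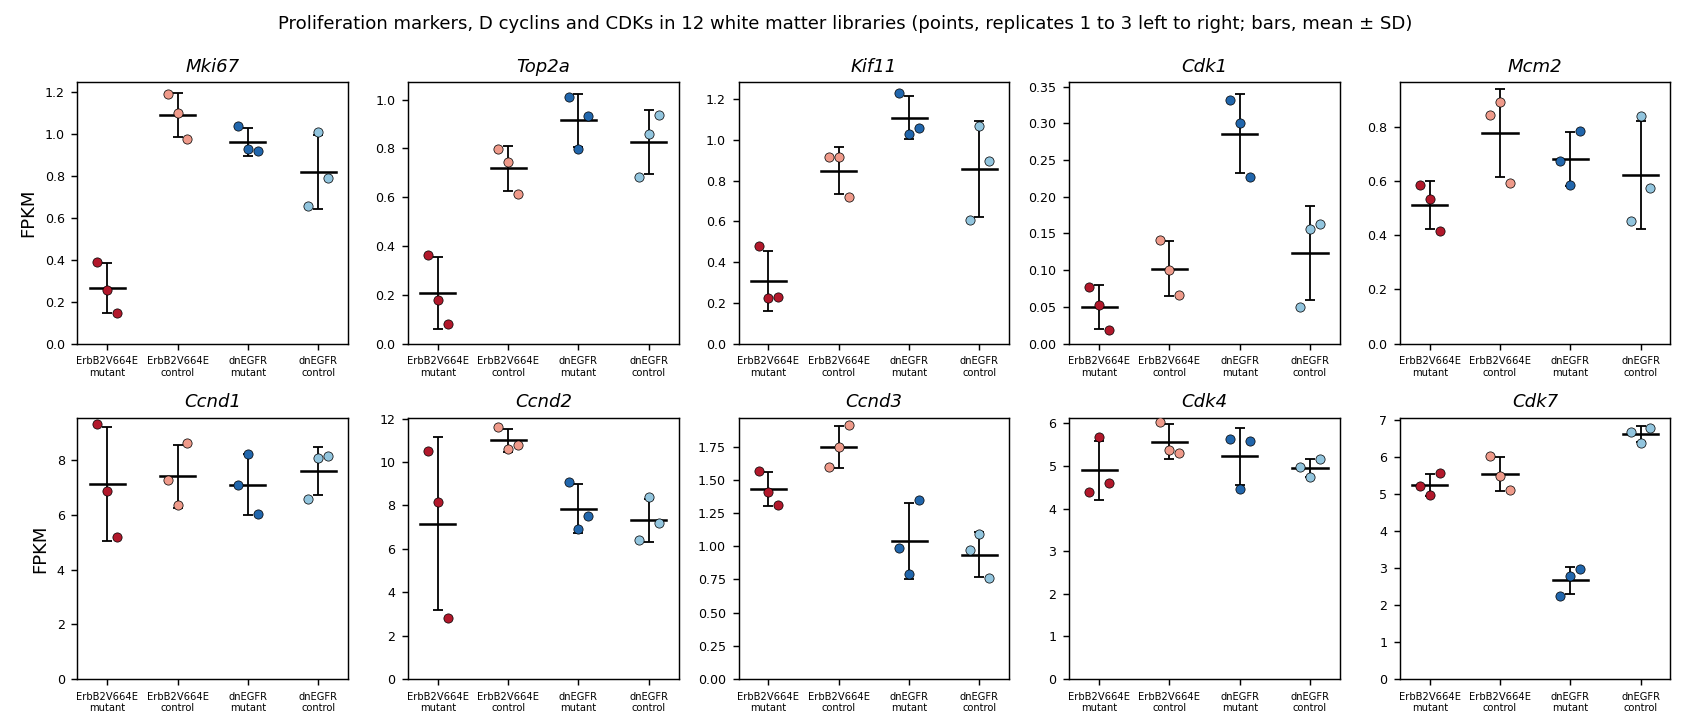
FPKM (vertical axis, from 0) of the 10 members in each library, with groups along the horizontal axis; points are the 3 libraries of a group in replicate order, and bars give the mean and SD. Mki67 lies at 0.148 to 0.39 FPKM in ErbB2V664E mutants and at 0.658 or more in the other 9 libraries, and Cdk7 lies at 2.25 to 2.97 FPKM in dnEGFR mutants and at 4.98 or more elsewhere.

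In ErbB2V664E mutants Mki67 fell, and it was the only member to pass the test. Mki67, Top2a, Kif11 and Mcm2 lay below their controls without overlap, while Cdk1, Ccnd1, Cdk4 and Cdk7 overlapped theirs. Mean levels in mutants were 24.3% of the control mean for Mki67, 28.9% for Top2a, 36.4% for Kif11, 48.6% for Cdk1 and 66% for Mcm2. Of the 10 members, 1 passed the test, in the lower direction, at an adjusted p under 0.05. That count stands beside 0.275% of the 13803 loci tested (38 loci), and 0.138% in the lower direction. Only loci with at least 1 FPKM in at least 3 of the 12 libraries were tested, which kept 7 members and left Top2a, Cdk1 and Mcm2 without a model test.

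Mki67 had 0.39, 0.257 and 0.148 FPKM in ErbB2V664E mutants 1 to 3, against 1.19, 1.1 and 0.978 FPKM in their controls. All mutants were below all controls, and each was below its own littermate, with mutant-to-littermate ratios of 0.151 to 0.329. The log2 change of FPKM + 1 was -0.73 (SE 0.12, adjusted p = 0.0407, limma), a scale that understates changes at low levels; the ratio of the means was a 4.11-fold lower level in mutants. With the litter as a block the adjusted p was 0.171 (limma). It passed again in 1 of the 12 fits that left out a library, the one without ErbB2V664E mutant 1, over which it ranged from 0.0168 to 0.146. On the 10061 nucleotides (GENCODE) of its 1 listed transcript, these levels correspond to an estimated 33 to 65 fragments in mutants and 199 to 260 in controls. Mki67 reached 1 FPKM in ErbB2V664E controls 1 and 2 (1.19 and 1.1), dnEGFR mutant 1 (1.04) and dnEGFR control 2 (1.01). No ErbB2V664E mutant reached it, and without its own controls, where it is high, Mki67 would not have passed the level filter. With no filter its adjusted p was 0.0555 (limma).

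Top2a had 0.365, 0.177 and 0.079 FPKM in ErbB2V664E mutants and 0.796, 0.744 and 0.614 FPKM in controls. The groups did not overlap, and mutant 3 was the lowest library of the 12. Kif11 had 0.479, 0.223 and 0.227 FPKM in ErbB2V664E mutants and 0.916, 0.916 and 0.719 FPKM in controls, again without overlap. Its log2 change of -0.50 (SE 0.13) did not pass the test across loci (adjusted p = 0.158, limma). Kif11 passed the level filter through dnEGFR mutants 1 to 3 and dnEGFR control 2, and no ErbB2V664E library reached 1 FPKM. Mcm2 had 0.587, 0.534 and 0.414 FPKM in ErbB2V664E mutants and 0.844, 0.892 and 0.591 FPKM in controls, where mutant 1 and control 3 nearly met. Cdk1 had 0.0773, 0.0532 and 0.0186 FPKM in mutants and 0.141, 0.0996 and 0.0662 FPKM in controls, which overlapped, although each mutant was below its littermate. For the 3 members below the filter, exact two-sided permutation tests of the FPKM values gave p = 0.1 for Top2a, 0.1 for Mcm2 and 0.2 for Cdk1 (0.2, 0.2 and 0.3 after Benjamini-Hochberg adjustment over 6 tests in both lines), and 0.1 is the smallest p that 3 against 3 allows.

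The D cyclins did not share one pattern in ErbB2V664E mutants. Ccnd2 had 10.5, 8.15 and 2.79 FPKM in mutants and 11.6, 10.6 and 10.8 FPKM in controls. Mutant 3 was far below the other 11 libraries, and mutant 1 lay just under the lowest control. The log2 change was -0.70 (SE 0.33, adjusted p = 0.428, limma), and -0.22 without mutant 3. Ccnd3 had 1.57, 1.41 and 1.31 FPKM in mutants and 1.6, 1.75 and 1.91 FPKM in controls, which lay close but did not overlap (log2 change -0.18, SE 0.12, adjusted p = 0.591, limma). Ccnd1 had 9.34, 6.88 and 5.21 FPKM in mutants and 7.26, 6.35 and 8.64 FPKM in controls, and mutants held both the highest and the lowest value of the line. Its log2 change of -0.07 (SE 0.19, adjusted p = 0.926, limma) turned to 0.11 without mutant 3 and to 0.03 without control 3. Ccnd2 made up 29.9% to 49.6% of the summed D cyclin FPKM in mutants and 50.6% to 56.6% in controls, and Ccnd1 made up 41.9% to 56% in mutants and 34% to 40.5% in controls.

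The kinases were level in this line. Cdk4 had 4.4, 5.69 and 4.61 FPKM in ErbB2V664E mutants and 6.04, 5.37 and 5.3 FPKM in controls (log2 change -0.16, SE 0.11, adjusted p = 0.608, limma). Cdk7 had 5.21, 4.98 and 5.57 FPKM in mutants and 6.01, 5.47 and 5.11 FPKM in controls (log2 change -0.06, SE 0.09, adjusted p = 0.846, limma). In both genes the groups overlapped. Across all members, 6 of 10 (Mki67, Top2a, Kif11, Mcm2, Ccnd2 and Ccnd3) had every ErbB2V664E mutant below every control and 0 had every mutant above, beside 8.89% lower and 9.54% higher among the 18642 loci above 0 in all libraries. Among the 5796 of those loci below the level filter the shares were 8.16% and 9.49%.

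**Figure D3:**
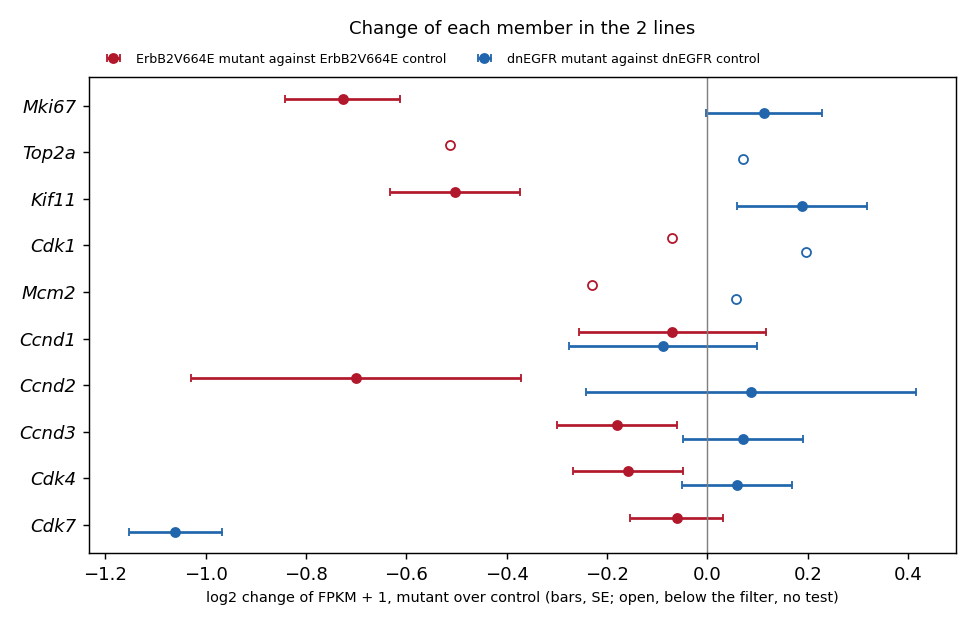
Log2 change of FPKM + 1, mutant over control (horizontal axis), of each member in the ErbB2V664E line (red, upper point) and the dnEGFR line (blue, lower point); bars are SE, and open points are members below the level filter, with no model test. The 5 proliferation markers lie left of 0 in the ErbB2V664E line and right of 0 in the dnEGFR line, and the value farthest left is Cdk7 in the dnEGFR line at -1.06.

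In dnEGFR mutants Cdk7 fell, and no proliferation marker was called. Of the 10 members, 1 passed, in the lower direction, beside 0.0942% of the 13803 loci tested (13 loci), 0.0362% in the lower and 0.058% in the higher direction. Cdk7 had 2.25, 2.77 and 2.97 FPKM in dnEGFR mutants, against 6.68, 6.37 and 6.79 FPKM in controls. All mutants were far below all controls, and also below the 6 libraries of the ErbB2V664E line. The log2 change was -1.06 (SE 0.09, adjusted p = 0.000947, limma), and the mutant mean was 40.2% of the control mean. The adjusted p was 0.0663 with the litter as a block (limma), and 0.00136 to 0.00506 when each library was left out. On its 1 listed transcript of 1988 nucleotides these levels correspond to an estimated 89 to 126 fragments in mutants and 244 to 334 in controls.

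The partners of Cdk7 in the CDK-activating kinase, Ccnh and Mnat1, did not follow it. Ccnh, its cyclin, had 8.66, 9.32 and 8.35 FPKM in dnEGFR mutants and 8.81, 8.08 and 7.59 FPKM in controls (log2 change 0.10, SE 0.09, adjusted p = 0.992, limma). Mnat1, the assembly factor of the complex, had 1.37, 1.44 and 1.77 FPKM in mutants and 1.24, 1.35 and 1.77 FPKM in controls (log2 change 0.05, SE 0.11, adjusted p = 1, limma). Both overlapped their controls. The ratio of Cdk7 to Ccnh FPKM was 0.259 to 0.355 in dnEGFR mutants and 0.758 to 0.894 in dnEGFR controls; it was 0.645 to 0.801 in ErbB2V664E mutants and 0.638 to 0.795 in ErbB2V664E controls. Of the 9 partner genes of the CDK-activating kinase and TFIIH, 0 passed the test in either line (limma). At an unadjusted p under 0.05 there were 0 in the dnEGFR line, beside 5.69% of loci, and 1 in the ErbB2V664E line, beside 12.1% of loci. Of these 9, 3 did have every dnEGFR mutant below every control, the TFIIH subunits Gtf2h1, Gtf2h3 and Gtf2h5, beside 4.94% of loci. Gtf2h1 had 11.9, 11.2 and 12.2 FPKM in dnEGFR mutants and 12.2, 12.7 and 12.5 FPKM in controls (log2 change -0.08, SE 0.08, adjusted p = 0.992, limma). Gtf2h3 had 1.75, 1.96 and 2.18 FPKM in dnEGFR mutants and 2.28, 2.19 and 2.21 FPKM in controls. Gtf2h5, whose locus was joined with Tulp4, had 6.67 to 8.96 FPKM in mutants and 9.66 to 9.92 FPKM in controls (log2 change -0.26, SE 0.12, adjusted p = 0.918, limma).

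**Figure D4:**
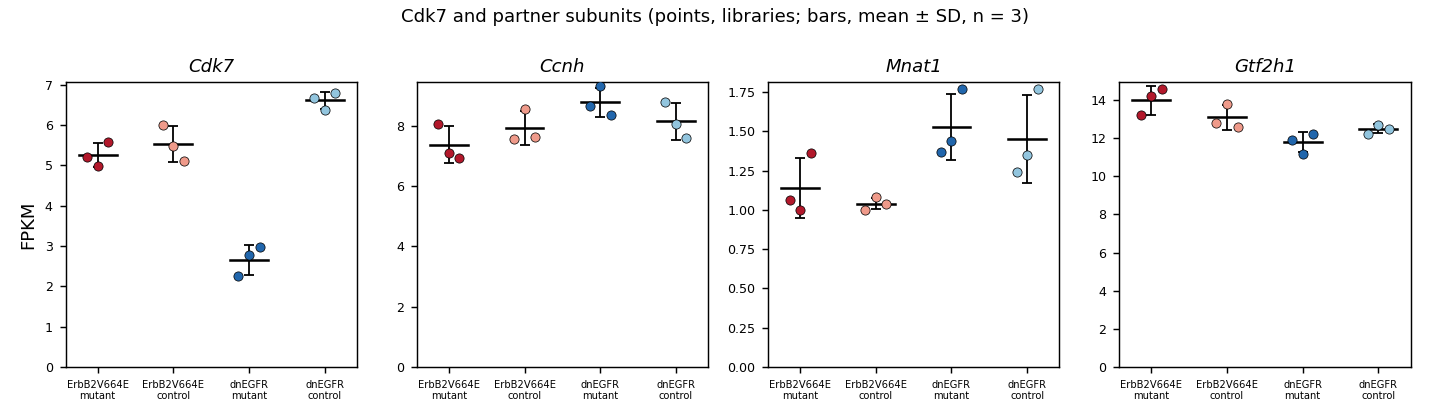
FPKM (vertical axis, from 0) of Cdk7, its cyclin Ccnh, the assembly factor Mnat1 and the TFIIH subunit Gtf2h1 in the 4 groups; points are libraries and bars mean and SD (n = 3). Cdk7 shows a wide gap, with dnEGFR mutants at 2.25 to 2.97 FPKM and dnEGFR controls at 6.37 to 6.79.

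The other cyclin-dependent kinases that act on transcription, listed with their cyclins, gave 0 calls among 9 genes in either line (limma), and 0 at an unadjusted p under 0.05. Cdk19, a kinase of the Mediator complex, had 13.8, 10.3 and 3.26 FPKM in dnEGFR mutants and 10.6, 11.7 and 10.9 FPKM in controls, with mutant 3 far below the rest. Cdk9, which with cyclin T releases paused polymerase, had 8.98, 8.26 and 7.78 FPKM in dnEGFR mutants and 7.56, 7.86 and 5.25 FPKM in controls. Neither passed (adjusted p = 0.987 for both, limma).

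Mki67 had 1.04, 0.927 and 0.919 FPKM in dnEGFR mutants and 0.658, 1.01 and 0.792 FPKM in controls (log2 change 0.11, SE 0.12, adjusted p = 0.992, limma). Kif11 had 1.23, 1.03 and 1.06 FPKM in mutants and 0.606, 1.07 and 0.896 FPKM in controls (log2 change 0.19, SE 0.13, adjusted p = 0.978, limma). In both genes control 1 was the lowest library of the line, and the groups overlapped. Top2a ranged from 0.799 to 1.01 FPKM in dnEGFR mutants and from 0.682 to 0.938 FPKM in controls, and Mcm2 from 0.584 to 0.785 FPKM in mutants and from 0.453 to 0.841 FPKM in controls. Cdk1 had 0.332, 0.3 and 0.227 FPKM in dnEGFR mutants and 0.0493, 0.156 and 0.163 FPKM in controls. Its groups did not overlap, with a mean 2.33 times the control mean. The exact two-sided permutation p was 0.1 for Cdk1, 0.5 for Top2a and 0.7 for Mcm2 (0.2, 0.6 and 0.7 after adjustment over the 6 tests). Cdk1 was the 1 member of 10 with every dnEGFR mutant above every control, beside 5.42% of the 18642 loci, and Cdk7 the 1 with every mutant below, beside 4.94%.

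The D cyclins and Cdk4 differed little between dnEGFR mutants and controls. Ccnd1 lay at 6.02 to 8.22 FPKM in mutants and 6.6 to 8.16 FPKM in controls, and Ccnd2 at 6.92 to 9.1 FPKM in mutants and 6.41 to 8.38 FPKM in controls. Ccnd3 lay at 0.787 to 1.35 FPKM in mutants and 0.757 to 1.09 FPKM in controls, and Cdk4 at 4.46 to 5.64 FPKM in mutants and 4.73 to 5.16 FPKM in controls. Their log2 changes were -0.09 (SE 0.19), 0.09 (SE 0.33), 0.07 (SE 0.12) and 0.06 (SE 0.11) in that order, with an adjusted p of 1 for each (limma). The 3 D cyclins summed to 14.9 to 17.2 FPKM in dnEGFR mutants and 14 to 17.5 FPKM in dnEGFR controls, and to 9.31 to 21.4 FPKM in ErbB2V664E mutants and 18.7 to 21.3 FPKM in ErbB2V664E controls.

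The 2 lines were also compared by the difference of their effects, ErbB2V664E minus dnEGFR. Of the members, 1 of 7 tested passed, beside 0.116% of 13803 loci and 0.0507% with a positive difference. Cdk7 differed by 1.00 on the log2 scale (SE 0.13, adjusted p = 0.0233, limma), with effects of -0.06 in the ErbB2V664E line and -1.06 in the dnEGFR line. With the litter as a block its adjusted p was 0.228 (limma), and when each library was left out it ranged from 0.0171 to 0.0565. It was past 0.05 without ErbB2V664E mutant 3 (0.0513), ErbB2V664E control 2 (0.0565), ErbB2V664E control 3 (0.0555) or dnEGFR control 2 (0.0513). Mki67 differed by -0.84 (SE 0.16, adjusted p = 0.174, limma) and Kif11 by -0.69 (SE 0.18, adjusted p = 0.352, limma), so the difference between lines did not pass for either marker. Line, age and length of doxycycline treatment are the same split of the libraries and cannot be told apart. The table carried other marks of that split: the locus Gm28661 had 5589 to 6563 FPKM in the ErbB2V664E line and at most 0.000146 FPKM in the dnEGFR line.

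A list of G2 and mitosis genes, set apart from the members, was described in the same way. It holds 36 genes, among them cyclin B1, the Aurora kinases and kinetochore proteins. Of these 36, 35 were above 0 FPKM in all libraries, and 17 of the 35 (48.6%) had every ErbB2V664E mutant below every control, with 0 above, beside 8.89% below and 9.54% above among all loci. The median change of the 35 was -0.55 on the log2(FPKM + 0.1) scale, beside 0.01 over all loci. Over the 7 genes that reached the level filter it was -0.03 on the log2(FPKM + 1) scale of the test, beside 0.00 over all tested loci. Summed FPKM was 17.6, 17.4 and 14.6 in mutants and 21.1, 23.4 and 20.7 in controls. In the dnEGFR line 0 of 35 were below and 2 above without overlap, beside 4.94% and 5.42% of all loci, with a median change of 0.19 beside 0.01 over all loci, and sums of 25.3, 23.2 and 21.9 FPKM in mutants and 19, 22.1 and 21.5 FPKM in controls. No gene of the list passed the test in either line (limma), and at an unadjusted p under 0.05 there were 1 in the ErbB2V664E line and 0 in the dnEGFR line. Of the 36, 3 stood at loci joined with another gene, and Cdkn3 was listed at 0 in a library.

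Bub1, Ube2c, Ccnb1 and Pbk, named after their values were seen, are taken from the 17 genes without overlap and do not stand for the rest of the list. Bub1, a spindle checkpoint kinase, had 0.0138, 0.0329 and 0.0442 FPKM in ErbB2V664E mutants and 0.214, 0.228 and 0.123 FPKM in controls. Ube2c, which helps the anaphase-promoting complex mark cyclins for degradation, had 0.291, 0.173 and 0.0881 FPKM in mutants and 0.676, 0.63 and 0.779 FPKM in controls. Ccnb1, the cyclin partner of Cdk1, had 0.0861, 0.0298 and 0.0176 FPKM in mutants and 0.231, 0.417 and 0.179 FPKM in controls. In each of these the mutants lay wholly below the controls. Pbk, a mitotic kinase that did reach the level filter, had 0.284, 0.226 and 0.0384 FPKM in mutants and 0.793, 1.05 and 0.445 FPKM in controls (log2 change -0.57, SE 0.18, adjusted p = 0.228, limma). The tested genes of the list with the highest levels, Ccnb2 (joined with Rnf111) and Racgap1, a regulator of cytokinesis, overlapped their controls, with log2 changes of -0.03 (SE 0.08) and 0.07 (SE 0.10) and adjusted p of 0.921 and 0.829 (limma).

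**Figure D5:**
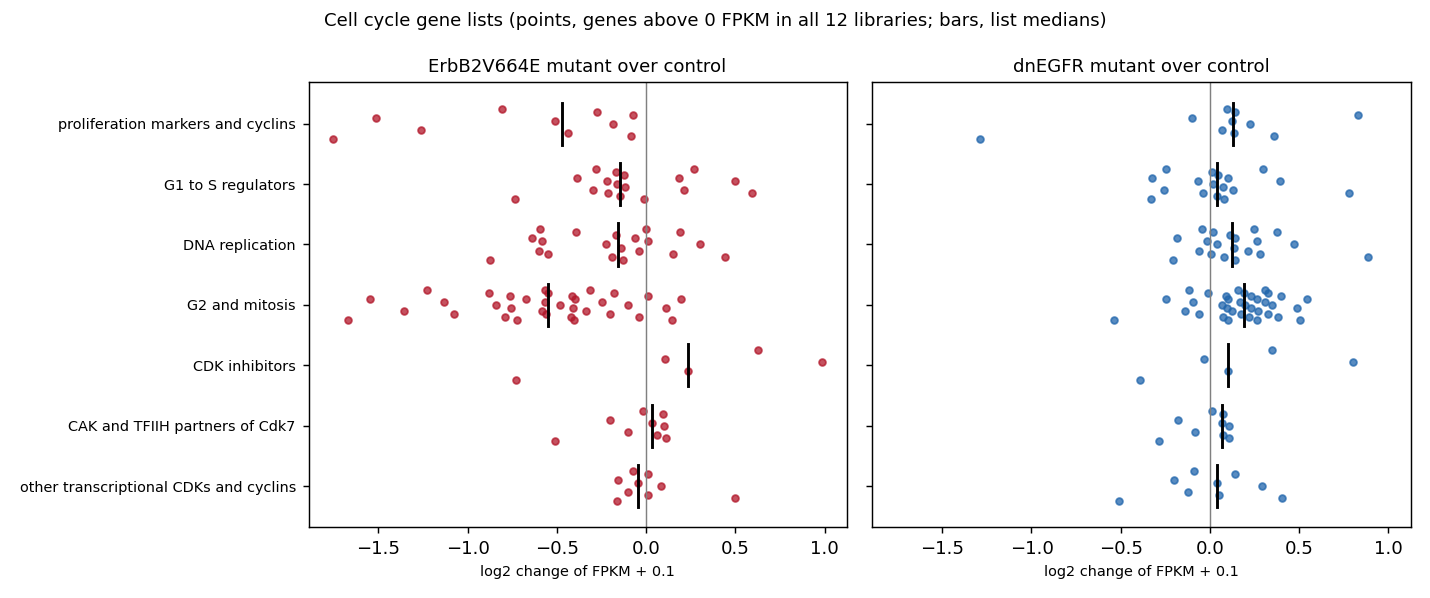
Log2 change of FPKM + 0.1 (horizontal axis, same scale in both panels) of each gene of the members' list and 6 cell cycle and transcription lists, mutant over control, for genes above 0 FPKM in all 12 libraries; black bars are list medians. The G2 and mitosis list has its median at -0.55 in the ErbB2V664E line and at 0.19 in the dnEGFR line.

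Genes that act before mitosis were listed too, and differences between the lists were not tested. Of 20 DNA replication genes, 4 (20%) lay below without overlap in ErbB2V664E mutants and 1 (5%) above, beside 8.89% and 9.54% of all loci. The median change was -0.16 over the 20 genes and -0.11 over the 10 tested (log2 of FPKM + 0.1 and of FPKM + 1). None passed the test, and 1 of the 10 had an unadjusted p under 0.05 (limma), beside 12.1% of all tested loci. Pcna, the sliding clamp of DNA polymerases, had 6.96, 8.42 and 8.29 FPKM in mutants and 8.7, 9.34 and 7.85 FPKM in controls (log2 change -0.12, SE 0.13, adjusted p = 0.775, limma). Mcm7, a helicase subunit like Mcm2, was the gene above, with 2.58, 3.25 and 3.13 FPKM in mutants and 2.58, 2.19 and 2.43 FPKM in controls (log2 change 0.23, SE 0.11, adjusted p = 0.43, limma). It ran opposite to Mcm2, and its mutant 1 and control 1 were equal to the digits given. Of 17 regulators of the step from G1 to S, 1 lay below and 1 above without overlap, 5.88% each way and under the shares of all loci. The median change was -0.15 over the 17 and -0.10 over the 10 tested, with 0 calls and 1 gene at an unadjusted p under 0.05 (limma). That gene was E2f1, named after its values were seen, and its mean was higher in mutants. It had 2.46, 4.54 and 3.79 FPKM in mutants and 2.46, 1.91 and 2.52 FPKM in controls, which overlapped (log2 change 0.46, SE 0.16, adjusted p = 0.267, limma). Tfdp1, the dimer partner of E2F factors, and Rbl2, a relative of the retinoblastoma protein, had log2 changes of -0.15 (SE 0.14) and 0.24 (SE 0.17) with adjusted p of 0.717 and 0.615 (limma). In the dnEGFR line the median changes of these lists were 0.12 and 0.04.

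Of the 7 inhibitors of cyclin-dependent kinases 4 reached the filter, Cdkn2a and Cdkn2b were listed at 0 in some libraries, and 0 passed in either line (limma), also at an unadjusted p under 0.05. Cdkn2d, an inhibitor of Cdk4 and Cdk6, had 8.93, 11.9 and 10.2 FPKM in ErbB2V664E mutants and 2.55, 10.8 and 10.4 FPKM in controls, with control 1 apart from the rest (log2 change 0.53, SE 0.38, adjusted p = 0.624, limma). Cdkn1b (p27) had 10.2, 7.45 and 6.22 FPKM in mutants and 5.77, 7.54 and 6.59 FPKM in controls (log2 change 0.21, SE 0.27, adjusted p = 0.808, limma). Cdkn1a (p21), named after its values were seen, had 4.76, 17 and 19.7 FPKM in ErbB2V664E mutants and 4.14, 8.69 and 5.58 FPKM in controls. Mutants 2 and 3 were the highest of the line and mutant 1 lay among the controls (log2 change 0.90, SE 0.45, adjusted p = 0.462, limma).

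Myelin transcripts were abundant in every library, but neuronal transcripts were abundant too, with a mean of 201 FPKM for Snap25 beside 554 FPKM for Mbp. How pure the dissected white matter was, was not tested. Markers of several cell types moved with the ErbB2V664E result. Summed red blood cell transcripts were 118, 32.5 and 22.1 FPKM in mutants and 143, 95.5 and 214 FPKM in controls, and 10 microglial markers summed to 104, 65.7 and 57.5 FPKM in mutants and 120, 104 and 138 FPKM in controls. The 9 mature oligodendrocyte markers summed to 713 to 1163 FPKM in mutants and 1185 to 1920 FPKM in controls, and 1 of them, Mag, passed in the lower direction. The 11 precursor markers summed to 42.1 to 50.9 FPKM in mutants and 51.1 to 57.1 FPKM in controls, with 0 passing (2 at an unadjusted p under 0.05, limma). Pdgfra, the defining receptor of precursors, had 7.26, 5.4 and 5.01 FPKM in mutants and 8.45, 7.75 and 7.83 FPKM in controls, without overlap (log2 change -0.40, SE 0.12, adjusted p = 0.219, limma). The 10 neuroblast markers, which the nearby subventricular zone can supply, summed to 14.5 to 23.2 FPKM in mutants and 20 to 21.8 FPKM in controls. Sums of 6 neuronal markers were 496 to 609 FPKM in mutants and 411 to 488 FPKM in controls, and sums of 8 endothelial markers were 49.5 to 54.2 FPKM in mutants and 35.8 to 44 FPKM in controls, where 1 gene, Vwf, passed in the higher direction. Sums of astrocyte markers were 149 to 170 FPKM in mutants and 185 to 370 FPKM in controls, and sums of ependymal markers were 12.2 to 18.6 FPKM in mutants and 16.2 to 25 FPKM in controls. Sums of choroid plexus markers were 11.9 to 634 FPKM in mutants and 243 to 564 FPKM in controls. Cldn5 (endothelial) was listed at 0 in ErbB2V664E control 3 and at 10.8 to 14.8 FPKM in the rest of the line. Without Cldn5 the endothelial sums of mutants and controls would overlap. It was also listed at 0 in some dnEGFR libraries. Sox11 (neuroblast) was listed at 0 in every dnEGFR library and in ErbB2V664E mutant 1, which held the lowest neuroblast sum. Its level was 3.01 to 4.33 FPKM in the rest of the ErbB2V664E line.

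The part of these cells in the low marker levels was not tested. In whole tissue, fewer dividing cells and less of these transcripts per cell cannot be told apart. Set against Pdgfra, the ratio of Mki67 to Pdgfra FPKM was 0.0296 to 0.0538 in ErbB2V664E mutants and 0.125 to 0.142 in controls. Set against the microglial receptor Csf1r, the ratio of Mki67 was 0.0126 to 0.0236 in mutants and 0.0443 to 0.0658 in controls. Mki67 alone already lay below its controls without overlap, so neither ratio is a separate test. Each ratio also uses a single marker of its list. Taken singly, mutants 1, 2 and 3 were below every control in 23, 24 and 26 of the 35 mitotic genes, beside 25.7%, 30.2% and 28.6% of all loci, a count added after the data were seen. In the dnEGFR line the ratio of Mki67 to Pdgfra was 0.144 to 0.171 in mutants and 0.0918 to 0.149 in controls. There, 5 red blood cell transcripts summed to 116 to 279 FPKM in mutants and 126 to 155 FPKM in controls, 10 microglial markers to 98 to 146 FPKM in mutants and 112 to 116 FPKM in controls, and 6 neuronal markers to 285 to 538 FPKM in mutants and 434 to 562 FPKM in controls, and their part in the Cdk7 result was not tested.

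Over the 12 libraries, Pearson's r of log2(FPKM + 1) among the 5 proliferation markers ran from 0.40 (Cdk1 with Mcm2) to 0.96 (Top2a with Kif11), as a description of libraries that share groups. It was 0.92 between Mki67 and Kif11 and 0.91 between Mki67 and Top2a. Cdk1 followed Kif11 at 0.81 and Mki67 at 0.60, and Mcm2 followed Mki67 at 0.75. Ccnd2, no proliferation marker, had 0.62 with Mki67, above the value of Cdk1. Ccnd1 stood apart from the markers, with r from 0.10 to 0.28, and its highest value among the members was 0.61, with Ccnd2. Cdk7 had r from -0.77 (Cdk1) to 0.19 (Ccnd3) with the other members.

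Among 13802 other tested loci, the 5 most like Mki67 by Pearson's r over the 12 libraries were Rmnd1 (0.93), Gm26945 (0.92), Kif11 (0.92), Pxdn (0.91) and Scd2 (0.91). Scd2, a fatty acid desaturase, averaged 243 FPKM in ErbB2V664E mutants and 341 FPKM in ErbB2V664E controls, and 308 FPKM in dnEGFR mutants and 321 FPKM in dnEGFR controls. Most like Ccnd1 were Yeats2 (0.91), Aacs (0.85), Mapk11 (0.82), Clgn (0.82) and Nfya (0.80). Most like Cdk7 were Pdyn (0.95), Zfp729b (0.91), C130083M11Rik (0.88), Tmem169 (0.88) and Acsl4 (0.85). Pdyn, which encodes the opioid precursor prodynorphin, averaged 2.19 FPKM in dnEGFR mutants and 11.8 FPKM in dnEGFR controls, and 10.3 FPKM in ErbB2V664E mutants and 11 FPKM in ErbB2V664E controls.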

How the data were processed

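Polyadenylated RNA of 12 mice was sequenced in paired ends, per the labels' protocols, which mention no step that preserves strand, so antisense overlaps were not resolved. The authors deposited FPKM per assembled locus. StringTie produced them according to the design text, and HISAT is named beside it in the submitters' processing notes. Tool versions, the build and the gene models behind the loci are not stated in the labels. Exact zeros can be failed estimates of the assembly and are called listed at 0. Depth was estimated from the value of 1 fragment (tolerance 0.01) at 14221 loci with 1 transcript, which gave 16596885 to 24739628 fragments per library. These are estimates, and no count model was run.

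Log2(FPKM + 1) was fitted with limma 3.58.1 in R 4.3.3, with 1 mean per group over the 12 libraries, a variance trend, two-sided tests and Benjamini-Hochberg adjustment over the 13803 loci with at least 1 FPKM in at least 3 libraries. The threshold was 0.05. There were 8 residual and 2.03 prior degrees of freedom, and the procedure was tested on simulated data. Exact permutation tests were used below the filter. Members and gene lists (G1 to S, DNA replication, G2 and mitosis, inhibitors, partners of Cdk7, other transcriptional kinases and cyclins, and cell markers) were chosen with earlier results of these data known. All 10 members were named, with Ccnh, Mnat1 and the 5 loci most like Mki67, Ccnd1 and Cdk7. From each list except the cell markers, the 2 most abundant tested genes and any gene past the threshold (0 were) were named. Other names were chosen after their values were seen. Litter numbers come from the descriptions, which name each mutant's littermate control. The correlations of deviations from the group means within the 6 litters were 0.02, 0.01, 0.03, 0.00, 0.01 and -0.03. Alternatives changed the pseudocount, filter, scaling, libraries fitted and litter block. Ratios, motif searches and figures used matplotlib 3.10.9, numpy 2.4.6 and pandas 2.3.3 in Python 3.11.15. A search of D cyclin proteins was not run.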

Additional observations from a re-analysis of the deposited data

Results flagged for a closer look

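Cdk7 differed between the lines, with an ErbB2V664E effect minus dnEGFR effect of 1.00 on the log2 scale (adjusted p = 0.0233, limma), where every dnEGFR mutant lay below every dnEGFR control and the ErbB2V664E groups overlapped. Cdk1 was below its littermate in all 3 ErbB2V664E litters and above it in all 3 dnEGFR litters, with mutant-to-littermate ratios of 0.281 to 0.547 in the ErbB2V664E line and 1.39 to 6.74 in the dnEGFR line. The difference of its log2 changes was -0.27 and was not tested. Its level stayed far under 1 FPKM throughout, at 0.0186 to 0.332 FPKM over the 12 libraries. The ratio of 6.74 had only 0.0493 FPKM in its control, so these ratios rest on very low values.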

How the results depend on the processing

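The fall of Mki67 in ErbB2V664E mutants and of Cdk7 in dnEGFR mutants kept its direction in every fit run, but the calls were less firm. The count of members called in the ErbB2V664E line was 0 with no level filter, with the 6 libraries of the line alone (adjusted p of Mki67 0.16), with the litter as a replicate block, and without ErbB2V664E mutants 2 and 3 (log2 change -0.59, adjusted p = 0.419), a setting chosen after seeing the data in which mutant 1 is assumed to vary like the other libraries. Leaving out 1 library gave 0 to 1 called members. In the dnEGFR line the count was 0 with the litter block and 1 in each fit that left out a library. For the difference of the effects it was 0 with the block, 0 without mutants 2 and 3 (adjusted p of Cdk7 0.115), and 0 to 1 when a library was left out. The cause was not tested.

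Over all loci, the 38 called in the ErbB2V664E line became 23 in the line alone (11 of them shared), 7 with the litter block and 16 to 262 without a library, the highest without ErbB2V664E mutant 1. The 13 of the dnEGFR line became 22 in the line alone, 3 with the block and 9 to 36 without a library, the highest without dnEGFR mutant 3. The 16 of the difference became 4 with the block, 31 without ErbB2V664E mutants 2 and 3 and 15 to 42 without a library, the highest without ErbB2V664E mutant 1. The litter block changed no other call of a member.

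Small changes turned sign. Without ErbB2V664E mutants 2 and 3 those in the ErbB2V664E line were 0.306 for Ccnd1 and 0.027 for Ccnh, and the difference for Mnat1 was -0.031. When a library was left out, Ccnd1 ranged from -0.258 to 0.11 in the ErbB2V664E line, from -0.186 to 0.011 in the dnEGFR line and from -0.169 to 0.199 in the difference. Mnat1 ranged in the same comparisons from -0.008 to 0.112, from -0.022 to 0.136 and from -0.071 to 0.086. In the dnEGFR line Ccnd2 ranged from -0.013 to 0.176 and Ccnd3 from -0.035 to 0.162. With a filter of 0.5 FPKM, Top2a and Mcm2 entered the test in the ErbB2V664E line with adjusted p of 0.109 and 0.462 (limma), and that of Mki67 was 0.0251. Levels under 1 FPKM, few fragments per gene and 3 mice a group limit what these data can separate.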
